A study of Mus musculus with 8 samples.

Results

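The genes described here make cholesterol and fatty acids, control that synthesis, or move sterols, and were followed in activated mouse CD4 T cells exposed to dibutyryl cyclic AMP (db-cAMP). A list of 36 genes was used, and a gene was taken where the array annotation gave at least 1 probe set naming that gene alone. Probe sets of this kind covered 34 of the 36 genes. Acat2 and Nr1h2 were not analysed here. Where a gene had several, the one brightest on average over the arrays stood for it, and all 34 entered the tests, among 12091 genes tested of 18193 named. By their main known regulator, 19 genes were put in an SREBP2 type, 8 in an SREBP1 type and 3 in an LXR type, and the other 4 (Srebf1, Srebf2, Scap and Insig2) were kept as regulators.

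The study used 8 Affymetrix arrays in 4 groups of 2. The groups were IFN-gR1-KO cells with db-cAMP, IFN-gR1-KO cells with vehicle, WT cells with db-cAMP and WT cells with vehicle. All cells were CD4 T cells purified by autoMACS from spleens of mice aged 8 weeks, and all were stimulated for 15 h through CD3 and CD28 with antibodies, with db-cAMP or vehicle present in the last 3 h. KO cells lack IFN-γ receptor 1, the chain that binds IFN-γ, and db-cAMP is a form of cyclic AMP that crosses membranes and switches on protein kinase A. The titles, source names and genotype entries of 4 arrays call the cells KO while their descriptions call them WT, and the titles were followed. Replicates are titled biological. Whether each was its own mouse or culture is not stated in the sources used here, so the p-values reflect the spread between these samples, which may be technical.

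Cells build cholesterol from acetyl-CoA by way of mevalonate, farnesyl diphosphate, squalene and lanosterol. The transcription factors SREBP2 and SREBP1 are made as membrane proteins of the endoplasmic reticulum, where SCAP binds them and INSIG proteins hold the complex back while sterols are plentiful. When sterols are scarce SCAP carries SREBPs to the Golgi, where proteases free the part that enters the nucleus. SREBP2 acts mainly on sterol synthesis genes and SREBP1 mainly on fatty acid synthesis genes. LXRs are nuclear receptors for oxysterols and raise genes of sterol export such as Abca1 and Abcg1. T cells that start to divide after antigen receptor stimulation raise lipid synthesis to build membranes.

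Promoter sequences from RefSeq (assembly GRCm38.p6), running from 250 bases before to 50 bases after a start site, were used for 26 of the 34 genes. They were searched on both strands for the sterol regulatory element, the stretch of 10 bases that SREBPs bind in textbook promoters. Some genes have several start sites, so the 26 had 34 promoter windows, and a gene was counted where any of its windows held a match. The exact element was found for 0 of the 26 genes and for 0.0999% of all 27025 mouse genes in the table, again counting a gene where any window matched. Windows on 1 chromosome were left out for the listed genes but kept in the shares of all genes. Up to 1 difference was met by 3 of 26 (Hmgcs1, Nsdhl and Srebf2) and by 2.22% of all genes. Up to 2 differences, a tolerance chosen after matches had been seen, were met by 11 of 26 and by 25.4% of all genes. By their response to db-cAMP in WT cells, given further on, the 11 were 6 of the 9 genes that fell and had a promoter sequence, and 5 of the 16 that did not pass the test in either direction.

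The 6 promoters of genes that fell are shown first and the 3 with at most 1 difference after them. Each line holds 70 bases read 5′ to 3′ along the gene's strand, and the capitals mark the 10 bases closest to the element. The Hsd17b7 stretch lies at chr1:169969284-169969353 on the minus strand, that of Cyp51 at chr5:4104747-4104816 on the minus strand and that of Msmo1 at chr8:64733632-64733701 on the minus strand. The Lss stretch is at chr10:76531528-76531597 on the plus strand, that of Fasn at chr11:120824637-120824706 on the minus strand and that of Idi1 at chr13:8885405-8885474 on the plus strand. The Hmgcs1 stretch is at chr13:119690183-119690252 on the plus strand, that of Srebf2 at chr15:82147076-82147145 on the plus strand and that of Nsdhl at chrX:72918285-72918354 on the plus strand.
Hsd17b7: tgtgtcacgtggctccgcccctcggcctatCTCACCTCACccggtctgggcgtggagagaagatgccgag
Cyp51: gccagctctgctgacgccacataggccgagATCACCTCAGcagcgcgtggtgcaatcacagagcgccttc
Msmo1: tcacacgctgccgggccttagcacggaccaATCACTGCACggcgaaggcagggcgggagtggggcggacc
Lss: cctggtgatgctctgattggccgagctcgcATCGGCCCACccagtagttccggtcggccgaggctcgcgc
Fasn: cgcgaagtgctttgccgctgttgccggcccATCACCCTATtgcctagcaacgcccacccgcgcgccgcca
Idi1: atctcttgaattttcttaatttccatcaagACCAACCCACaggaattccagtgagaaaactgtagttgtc
Hmgcs1: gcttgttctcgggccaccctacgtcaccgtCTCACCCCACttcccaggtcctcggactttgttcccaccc
Srebf2: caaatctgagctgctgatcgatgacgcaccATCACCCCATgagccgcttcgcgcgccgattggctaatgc
Nsdhl: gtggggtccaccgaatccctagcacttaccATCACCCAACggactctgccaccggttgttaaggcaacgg

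The capitals start between 47 and 206 bases before the start site. The CCAAT box (CCAAT), bound by NF-Y, a usual partner of SREBPs, was found for 21 of the 26 genes and for 41.1% of all genes. All genes here include those not tested on the arrays, and tested genes were not counted apart. The GC box (GGGCGG), bound by Sp1, was found for 22 of 26 and for 38.2%, and the E box CACGTG for 6 of 26 and for 8.09%. The full cAMP response element (TGACGTCA), which CREB binds, was found for 0 of 26 and for 2.03%. Its shorter form TGACG, which lies inside the full one, was found for 9 of 26 and for 23.0%. The DR4 element, which LXRs bind, was searched with no difference allowed and was found for 0 of 26 and for 0.0148%. So rare an exact match cannot show whether these genes lack LXR sites. A match describes letters in this window and is not a binding site shown in these cells.

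Signals are linear, in the arbitrary units of the MAS5 algorithm, which gives all arrays a common mean, so total mRNA per cell was not measured. Correlations between replicates were 0.961 to 0.977 over genes, and genes are not independent. Ifngr1, the targeted gene, read 1056 and 1272 in KO with db-cAMP, 439 and 378 in KO with vehicle, 7319 and 8201 in WT with db-cAMP, and 905 and 873 in WT with vehicle. Within each treatment every KO array lay below every WT array, and the sources used here do not place the probe set relative to the targeted part of the gene. Summed signals of the 6 T cell identity genes measured ran between 63920 and 71960. No single marker gene of B cells, CD8 T cells, macrophages and neutrophils, dendritic cells, or erythroid cells and platelets read above 366.6. NK cell markers were the exception, with a single marker reading up to 931.3, and 1 of the 2 measured entered the tests.

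Some sets of control or marker signals moved with the groups. The 27 poly-A spike-in probe sets averaged 4332 to 5188 in KO with db-cAMP, 3699 to 4130 in KO with vehicle, 1583 to 1911 in WT with db-cAMP and 1283 to 1456 in WT with vehicle. The 3 probe sets of 18S rRNA averaged 31400 to 38700 in KO with db-cAMP against 24550 to 26850 in KO with vehicle, and 36890 to 37630 in WT with db-cAMP against 25510 to 28570 in WT with vehicle. The 18 hybridization control probe sets were higher on every WT array than on every KO array. The summed signal of the 2 NK cell markers measured was 935.8 to 944.2 in KO with db-cAMP against 395.5 to 471.3 in KO with vehicle, and 769.2 to 827.9 in WT with db-cAMP against 408.2 to 524.6 in WT with vehicle. Of 2 CD8 T cell markers the sum was 269.8 to 275.9 in KO with db-cAMP, 290.4 to 335.3 in KO with vehicle, 366.6 to 432.8 in WT with db-cAMP and 498.8 to 516.3 in WT with vehicle. The part of these shifts in the results was not tested.

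The first question was what db-cAMP did to lipid synthesis genes in WT cells. Most of the sterol synthesis genes that fell act from squalene on. Squalene epoxidase, lanosterol synthase, the sterol demethylase Cyp51, Msmo1 and Hsd17b7 were all lower with db-cAMP, and so were fatty acid synthase and acetyl-CoA carboxylase. The retention factor Insig1 and the escort Scap fell as well, while Srebf1, Scd1 and the exporter Abcg1 rose. In all, 12 of the 34 genes fell (35.3%) and 3 rose (8.82%), where 18.6% of all genes tested fell and 16.4% rose, 35% in all. Most of the 34 genes were above the array median on all 8 arrays. Of all genes that bright 4165 of 8819 were called in WT, 46.2% of them higher, a larger share than the 35%. The list was chosen with earlier results of these data known, so its shares are description only. Calls are limma's at a Benjamini-Hochberg adjusted p under 0.05 over all genes tested, and errors of log2 changes are SEs of the fit.

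By type, 8 of 19 SREBP2-type genes fell and 0 rose, with a median log2 change of -0.26. Among SREBP1-type genes 3 of 8 fell and 1 rose, with a median of -0.25. The LXR-type set had 1 of 3 rising and 0 falling, with a median of 0.73, and of the 4 regulators 1 rose and 1 fell, with a median of 0.25. The median over all genes tested was 0.01. Both db-cAMP arrays lay below both vehicle arrays for 12 of 19 SREBP2-type genes and 4 of 8 SREBP1-type genes, which held for 30.9% of all genes. For all 3 LXR-type genes both db-cAMP arrays lay above both vehicle arrays, which held for 32.2% of all genes. In bulk samples fewer cells of a kind and less RNA per cell cannot be told apart.

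**Figure D1:**
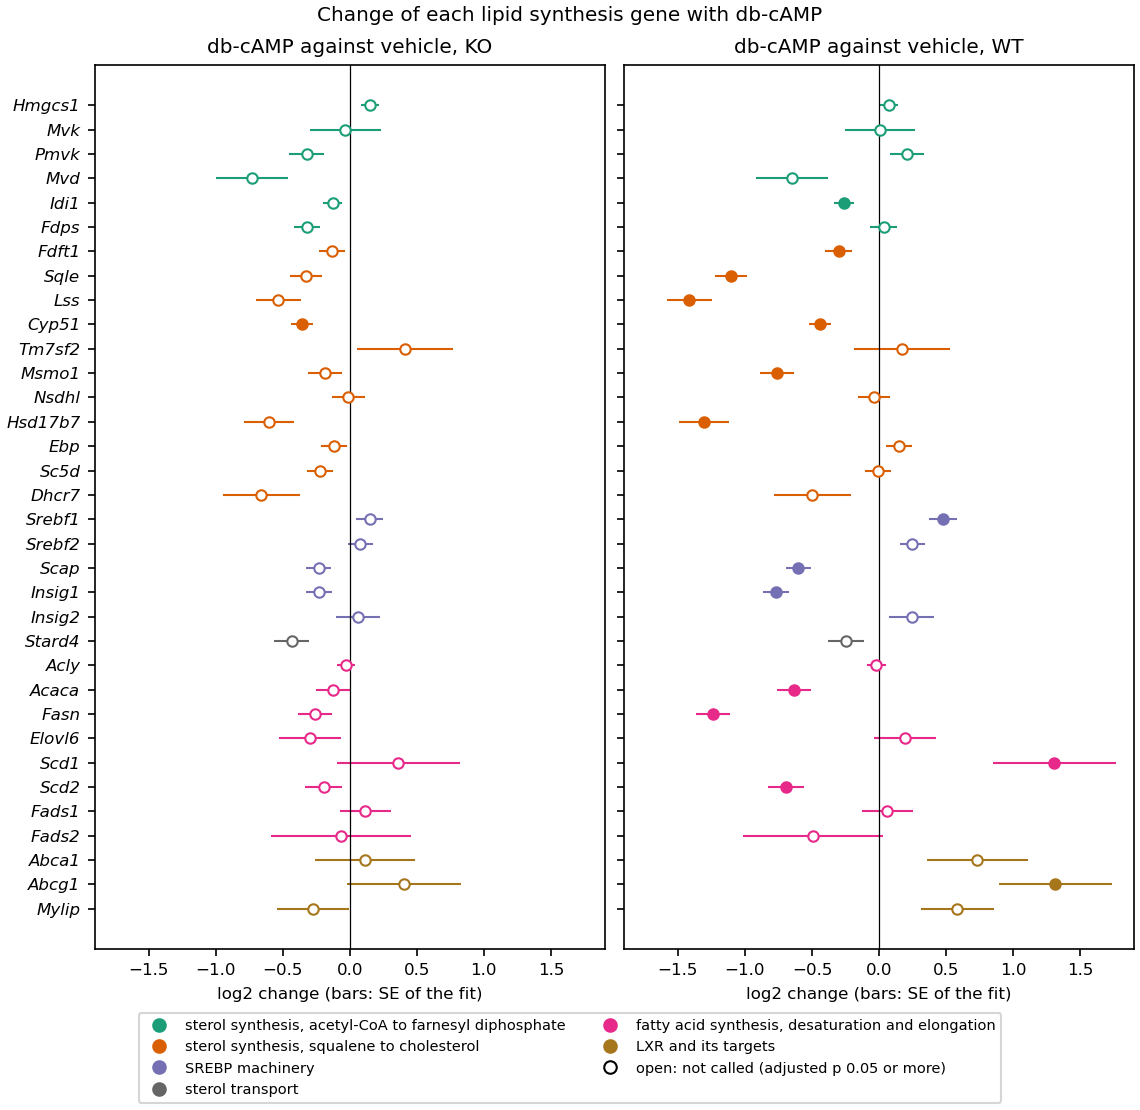
Log2 change with db-cAMP (x axis) of each of the 34 genes (rows, in pathway order and coloured by step), in KO cells (left) and WT cells (right). Points are fitted changes, bars are SEs of the fit from 2 arrays a group, and filled points passed an adjusted p under 0.05. In WT cells 12 filled points lie left of 0 and 3 right of it, and in KO cells the only filled point is Cyp51.

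In the steps up to farnesyl diphosphate 1 of 6 genes fell in WT cells (16.7%), near the 18.6% of all genes tested that fell. Idi1, the isopentenyl diphosphate isomerase, had signals of 4419 and 4249 in WT with db-cAMP, against 5346 and 5057 in WT with vehicle. It fell by a log2 change of -0.26 ± 0.07 (adjusted p = 0.0133), and leaving out WT db-cAMP replicate 2 (adjusted p = 0.0736) or WT vehicle replicate 1 (0.0941), or the intensity trend in limma's variance estimate (0.0872), ended the call. Hmgcs1, the HMG-CoA synthase that opens the mevalonate branch, read 7919 and 8115 in WT with db-cAMP and 7415 and 7828 in WT with vehicle. Its change of 0.07 ± 0.07 did not pass (adjusted p = 0.457). Nor did those of the mevalonate kinase Mvk, the phosphomevalonate kinase Pmvk, the decarboxylase Mvd or the farnesyl diphosphate synthase Fdps, which ran between -0.65 for Mvd and 0.21 for Pmvk. Mvd was lower on both WT db-cAMP arrays, at 144 and 114, against 235 and 179 on the WT vehicle arrays (adjusted p = 0.0776).

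From squalene on, 6 of 11 genes fell in WT cells (54.5%) and 0 rose, with a median log2 change of -0.44. Fdft1, the squalene synthase, read 1715 and 1547 in WT with db-cAMP, against 2205 and 1827 in WT with vehicle. This fall was small, -0.30 ± 0.10 (adjusted p = 0.0313), and was not called without WT db-cAMP replicate 2 (0.188) or WT vehicle replicate 1 (0.295), without the intensity trend (0.131) or with only the WT groups fitted (0.0708). With the gene's probe sets averaged the Fdft1 change was near 0 (adjusted p = 0.992). That average takes in dim probe sets, with mean signals of 26.7 and 25.6, that were too low to be tested. A further Fdft1 probe set, with a mean of 1101, had a log2 change of -0.33 ± 0.11 (adjusted p = 0.0447) when every probe set was tested. Sqle, the squalene epoxidase and a slow step of the pathway, read 713 and 633 in WT with db-cAMP, against 1641 and 1280.5 in WT with vehicle. Every db-cAMP array was below every vehicle array, a 2.15-fold fall with a log2 change of -1.10 ± 0.12 (adjusted p = 7.33e-06). Lss, the lanosterol synthase that closes the sterol rings, had 211 and 281 in WT with db-cAMP, against 585 and 740.2 in WT with vehicle. It fell 2.67-fold, by a log2 change of -1.41 ± 0.17 (adjusted p = 1.82e-05), the largest fall among the 34 genes in the 1 probe set per gene that was tested.

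The later sterol steps were mixed. Cyp51 had 1892 and 1911 in WT with db-cAMP, against 2648 and 2520.3 in WT with vehicle, a log2 change of -0.44 ± 0.08 (adjusted p = 0.000762). Msmo1, the methylsterol monooxygenase, had 886 and 1214 in WT with db-cAMP, against 1764 and 1764 in WT with vehicle, and fell by 0.76 ± 0.13 on the log2 scale (adjusted p = 0.000332). Hsd17b7, a ketosteroid reductase, read 149 and 158 in WT with db-cAMP, against 345 and 436 in WT with vehicle. Its 2.47-fold fall had a log2 change of -1.30 ± 0.19 (adjusted p = 9.21e-05), with no overlap between the groups. Ebp, a sterol isomerase, read 2518 and 2375 in WT with db-cAMP and 2313 and 2110.2 in WT with vehicle, and its change of 0.15 ± 0.10 did not pass (adjusted p = 0.281). The others that did not pass were Tm7sf2, Nsdhl, Sc5d and Dhcr7, with changes between -0.50 (Dhcr7, the last reductase before cholesterol) and 0.17 (Tm7sf2). The sterol carrier Stard4 changed by -0.25 ± 0.13 (adjusted p = 0.18).

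The regulators did not move as one. Insig1, which retains SCAP and is itself a known SREBP target, had 735 and 735 in WT with db-cAMP, against 1213 and 1299 in WT with vehicle. It fell 1.70-fold, a log2 change of -0.77 ± 0.10 (adjusted p = 3.03e-05). Scap read 1522 and 1360.1 in WT with db-cAMP, against 2319 and 2059.5 in WT with vehicle, and fell by 0.60 ± 0.09 on the log2 scale (adjusted p = 0.000201). Srebf1, which encodes SREBP1, went the other way, with 1253 and 1468 in WT with db-cAMP, against 999.7 and 948 in WT with vehicle. It rose 1.39-fold, a log2 change of 0.48 ± 0.10 (adjusted p = 0.0026). For Srebf2, which encodes SREBP2, the values were 1589.6 and 1622 in WT with db-cAMP and 1277 and 1427 in WT with vehicle, a change of 0.25 ± 0.09 that missed the threshold (adjusted p = 0.0528). Insig2 had 607 and 493 in WT with db-cAMP and 401 and 530.4 in WT with vehicle (change 0.24 ± 0.17, adjusted p = 0.296).

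Fatty acid synthesis split by enzyme. Fasn, the fatty acid synthase, read 1072 and 926 in WT with db-cAMP, against 2111 and 2643 in WT with vehicle. It fell 2.36-fold, a log2 change of -1.24 ± 0.13 (adjusted p = 4.25e-06). Acaca, the acetyl-CoA carboxylase that makes malonyl-CoA, had 623 and 669.9 in WT with db-cAMP, against 999 and 1013 in WT with vehicle, and fell by 0.63 ± 0.13 on the log2 scale (adjusted p = 0.00139). Acly, which supplies cytosolic acetyl-CoA, stayed within its spread at 5718 and 5694 in WT with db-cAMP and 5845 and 5721 in WT with vehicle (change -0.02 ± 0.07, adjusted p = 0.863).

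The stearoyl-CoA desaturases moved in opposite directions. Scd2 had 642 and 536 in WT with db-cAMP, against 1002 and 906 in WT with vehicle, a fall of 0.69 ± 0.14 on the log2 scale (adjusted p = 0.00123). Scd1 was dim, with 142 and 157 in WT with db-cAMP, against 59.0 and 55.0 in WT with vehicle. It rose by 1.31 ± 0.46 (adjusted p = 0.0402), was above the array median on 6 of 8 arrays, and was not called without any of the 4 WT arrays in turn (adjusted p = 0.0921 to 0.139) or with either KO db-cAMP array left out. The elongase Elovl6 and the desaturases Fads1 and Fads2 did not pass, with changes of 0.19, 0.06 and -0.49.

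All 3 LXR-type genes were higher on both WT db-cAMP arrays than on both WT vehicle arrays, and 1 passed the test. Abcg1, a sterol exporter, read 559 and 328 in WT with db-cAMP, against 128 and 221 in WT with vehicle. It rose by 1.32 ± 0.42 on the log2 scale (adjusted p = 0.0274), with replicates far apart in both groups, and leaving out WT db-cAMP replicate 1 (0.197) or WT vehicle replicate 1 (0.195), or the intensity trend (0.15), ended the call. Abca1, which exports cholesterol to apolipoprotein A-I, had 114 and 138 in WT with db-cAMP and 62.3 and 85.4 in WT with vehicle, a change of 0.73 ± 0.38 (adjusted p = 0.157). Mylip, a ubiquitin ligase for lipoprotein receptors, had 419.9 and 367 in WT with db-cAMP and 307 and 219.6 in WT with vehicle, a change of 0.59 ± 0.27 (adjusted p = 0.117).

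**Figure D2:**
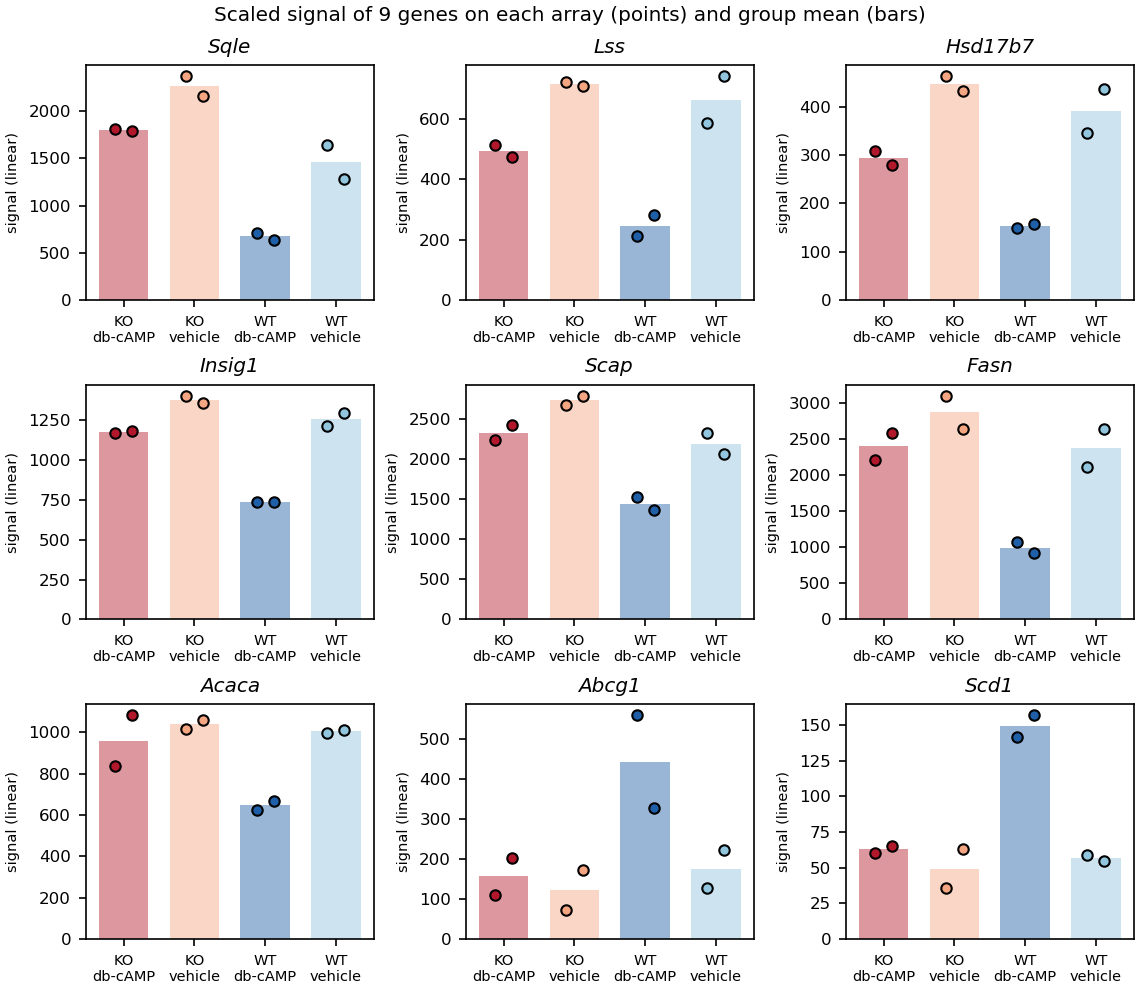
Scaled linear signal (y axis, arbitrary units, from 0 and with its own range in each panel) of 9 genes in the 4 groups, with 1 point per array and bars at the mean of 2 arrays. Sqle averages 1802, 2268, 673 and 1461 in KO with db-cAMP, KO with vehicle, WT with db-cAMP and WT with vehicle. WT with db-cAMP is the lowest group for Sqle, Lss, Hsd17b7, Insig1, Scap, Fasn and Acaca and the highest for Abcg1 and Scd1.

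The next question was how much of this response was seen without the IFN-γ receptor. In KO cells 1 of the 34 genes fell with db-cAMP and 0 rose (2.94%), where 8.38% of all genes tested were called, 3.68% lower and 4.7% higher. With arrays scaled to an equal 75th percentile 5 of the 34 fell, and 43.1% of all calls were higher, in place of 56.1%. With the 2 KO groups fitted alone 6 fell, where 1226 of all 12091 genes were called, 53.8% of them higher. At an unadjusted p under 0.05 there were 13 of the 34, against 2480 of all 12091 genes. The median change was -0.23 over SREBP2-type genes, -0.09 over SREBP1-type genes and 0.11 over LXR-type genes. Both db-cAMP arrays lay below both vehicle arrays for 13 of 19 SREBP2-type genes, which held for 26.2% of all genes.

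Cyp51 was the gene that fell, with 2328 and 2480.2 in KO with db-cAMP, against 2976 and 3187 in KO with vehicle. The change was -0.36 ± 0.08 (adjusted p = 0.0152), and the call was lost without KO vehicle replicate 2 (0.133) or either KO db-cAMP replicate (0.152 for replicate 1 and 0.0578 for replicate 2), without the intensity trend (0.134) and with probe sets averaged (0.257). Sqle had 1809.7 and 1794 in KO with db-cAMP and 2369.6 and 2166 in KO with vehicle, a change of -0.33 ± 0.12 (adjusted p = 0.121). For Lss the signals were 512 and 474 in KO with db-cAMP and 721 and 709.9 in KO with vehicle, -0.53 ± 0.17 (adjusted p = 0.075). Both genes were lower on both KO db-cAMP arrays than on both KO vehicle arrays, without passing the test. Hsd17b7 had 307 and 279 in KO with db-cAMP and 462 and 432 in KO with vehicle, -0.60 ± 0.19 (adjusted p = 0.0699). Msmo1 read 1579.9 and 1448 in KO with db-cAMP and 1769 and 1673 in KO with vehicle, a change of -0.18 ± 0.13 that did not pass. Fdft1 read 2498 and 2458 in KO with db-cAMP and 2661 and 2777 in KO with vehicle, and its change of -0.13 ± 0.10 did not pass either.

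In the earlier steps, Hmgcs1 had 10542 and 10149 in KO with db-cAMP and 9549 and 9077 in KO with vehicle. Idi1 had 6616 and 6188 in KO with db-cAMP and 6764 and 7233 in KO with vehicle. Neither change passed, at 0.15 ± 0.07 for Hmgcs1 and -0.13 ± 0.07 for Idi1. Fdps read 2818 and 2992 in KO with db-cAMP and 3326 and 3961 in KO with vehicle, a change of -0.32 ± 0.10 (adjusted p = 0.0616). Pmvk read 579 and 592 in KO with db-cAMP and 689.6 and 779 in KO with vehicle, -0.32 ± 0.13 (adjusted p = 0.167). For Fdps and Pmvk both KO db-cAMP arrays lay below both KO vehicle arrays. Ebp had 2051 and 1780.5 in KO with db-cAMP and 1978 and 2183 in KO with vehicle, and these overlapped (change -0.12 ± 0.10). The sterol carrier Stard4 changed by -0.43 ± 0.13 (adjusted p = 0.0664).

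Among the regulators in KO cells, Insig1 had 1169 and 1186 with db-cAMP and 1403 and 1356 with vehicle, a change of -0.23 ± 0.10 (adjusted p = 0.197). Scap had 2233 and 2416 in KO with db-cAMP and 2675 and 2782 in KO with vehicle, -0.23 ± 0.09 (adjusted p = 0.175). Both read lower on each KO db-cAMP array than on each KO vehicle array. Srebf1 had 1629 and 1656 in KO with db-cAMP and 1418 and 1550.0 in KO with vehicle. Srebf2 had 2105 and 2236 in KO with db-cAMP and 2142 and 1967 in KO with vehicle, and Insig2 had 581 and 686 in KO with db-cAMP and 583 and 627 in KO with vehicle. Their changes were 0.15 ± 0.10 for Srebf1, 0.08 ± 0.09 for Srebf2 and 0.06 ± 0.17 for Insig2, none past the threshold.

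Fasn in KO cells read 2213 and 2595 with db-cAMP and 3104 and 2652 with vehicle, a change of -0.26 ± 0.13 (adjusted p = 0.274). Acaca had 838 and 1082 in KO with db-cAMP and 1018 and 1059 in KO with vehicle, with overlapping arrays (change -0.12 ± 0.13). Scd2 had 424 and 466 in KO with db-cAMP and 512 and 508 in KO with vehicle (-0.20 ± 0.14, adjusted p = 0.486). The desaturase Scd1 stayed dim, with 60.6 and 65.1 in KO with db-cAMP and 35.8 and 62.8 in KO with vehicle. Abcg1 had 110.3 and 203 in KO with db-cAMP and 71.8 and 173 in KO with vehicle, and the replicates of each group lay further apart than the groups did.

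The 12 genes that fell in WT cells were compared with their own values in KO arrays, which share no array with the WT comparison. All 12 had a negative change in KO cells and all 12 were smaller in size there, with medians of -0.23 in KO and -0.73 in WT. Among all 2249 genes that fell in WT cells, 88.9% were negative and 98.5% were smaller in KO, with medians of -0.21 in KO and -0.67 in WT. The pattern of the 12 lipid genes is therefore near that of all genes that fell. Of the 3 genes that rose in WT cells, all 3 were positive and smaller in KO, where 89.2% and 97.1% of all genes that rose in WT were. All these genes were picked for passing the test in WT, which by itself favours a smaller size in KO. The counts of smaller changes are therefore no measure of a difference between the genotypes.

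The difference between genotypes was tested directly as an interaction, the db-cAMP effect in KO minus that in WT. It was called for 4 of the 34 genes, all positive (11.8%). Of all genes tested 11.8% were called, 6.7% positive and 5.09% negative, so the share matched that background. Of genes above the array median on all 8 arrays, 1544 of 8819 were called, a larger share. The 4 genes were Fasn (0.98 ± 0.18, adjusted p = 0.00295), Sqle (0.77 ± 0.17, adjusted p = 0.00913), Insig1 (0.54 ± 0.14, adjusted p = 0.0212) and Lss (0.88 ± 0.24, adjusted p = 0.0293). Each had a smaller negative change in KO cells than in WT cells. Msmo1 missed the threshold at 0.58 ± 0.18 (adjusted p = 0.0551), and for Cyp51 the interaction was 0.08 ± 0.12 (adjusted p = 0.732). The LXR-type genes all had negative interactions, with a median of -0.86, and none passed (Mylip -0.86 ± 0.38, adjusted p = 0.193). Without the intensity trend in limma's variance estimate 0 interactions were called among the 34, and 261 among all 12091 genes, in place of 1425. The Lss call was lost in 6 of the 8 fits that leave out 1 array and the Insig1 call in 4 of 8 (WT vehicle replicate 2, KO vehicle replicate 2 and each KO db-cAMP replicate).

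With db-cAMP present, the scaled signal of many sterol genes was higher in KO cells than in WT cells. Of the 34 genes 13 were higher in KO (38.2%) and 5 lower (14.7%), where 15.9% of all genes were higher and 13.3% lower, 29.2% in all. Of genes above the array median on all 8 arrays, 3581 of 8819 were called, 54.8% of them higher, a larger share than the 29.2%. By type, 9 of 19 SREBP2-type genes were higher and 3 lower (median 0.34), 2 of 8 SREBP1-type genes were higher and 1 lower (median -0.11), and 0 of 3 LXR-type genes were higher and 1 lower (median -0.30). Sqle averaged 1802 ± 11.2 (SD, n = 2) in KO with db-cAMP and 673 ± 56.0 in WT with db-cAMP, 2.67-fold higher (log2 1.42 ± 0.12, adjusted p = 1.59e-06). Fasn averaged 2404 ± 269.8 in KO with db-cAMP and 999 ± 103 in WT with db-cAMP, 2.40-fold higher (1.26 ± 0.13, adjusted p = 6.81e-06). Both KO arrays lay above both WT arrays for 15 of the 34 genes and below them for 9, which held for 32.1% and 32% of all genes. These arrays also serve in the db-cAMP comparison within WT cells, so the comparisons are not independent.

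Further SREBP2-type genes higher in KO with db-cAMP were Lss (493 ± 27.3 in KO with db-cAMP and 246 ± 49.2 in WT with db-cAMP, adjusted p = 0.000536), Hsd17b7 (0.91 ± 0.19, adjusted p = 0.00229), Insig1 (0.68 ± 0.10, adjusted p = 0.000149) and Fdft1 (0.60 ± 0.10, adjusted p = 0.000436). Idi1 differed by 0.56 ± 0.07 (adjusted p = 7.27e-05), Msmo1 by 0.54 ± 0.13 (adjusted p = 0.00542), Hmgcs1 by 0.37 ± 0.07 (adjusted p = 0.00107) and Cyp51 by 0.34 ± 0.08 (adjusted p = 0.00657). Scap (0.69 ± 0.09), Srebf2 (0.43 ± 0.09) and Acaca (0.56 ± 0.13) were higher too. Against these, 3 sterol enzymes were lower in KO with db-cAMP. Pmvk averaged 586 ± 9.26 in KO with db-cAMP and 941 ± 139.8 in WT with db-cAMP (-0.67 ± 0.13, adjusted p = 0.00138), Fdps differed by -0.47 ± 0.10 (adjusted p = 0.00243) and Ebp by -0.35 ± 0.10 (adjusted p = 0.0136). Abcg1 averaged 156 ± 65.4 in KO with db-cAMP and 443 ± 164 in WT with db-cAMP (-1.48 ± 0.42, adjusted p = 0.0174), and Scd2 differed by -0.40 ± 0.14 (adjusted p = 0.0443).

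Single arrays decided some of these calls. Without WT db-cAMP replicate 1 the calls of Abcg1 (adjusted p = 0.143), Ebp (0.0798) and Msmo1 (0.0569) were lost. Without KO db-cAMP replicate 1 those of Abcg1 (0.166) and Msmo1 (0.0551) were lost, and without KO db-cAMP replicate 2 those of Acaca (0.086), Cyp51 (0.0747) and Ebp (0.163). The Scd2 call was lost without any array but WT db-cAMP replicate 2 (adjusted p = 0.0517 to 0.246). Sqle, Lss, Hsd17b7, Idi1, Hmgcs1, Insig1, Srebf2, Scap, Pmvk and Fasn passed in every alternative run. With probe sets averaged the calls of Abcg1, Acaca, Fdft1, Fdps, Msmo1 and Scd2 were lost, and each of those averages takes in a dim probe set. Without the intensity trend the calls of Abcg1, Ebp, Fdps, Msmo1 and Scd2 were lost, and with an equal 75th percentile that of Cyp51 (0.0791). Scaling each array to an equal 75th percentile moved the median of all genes to -0.13 and turned the median of the 34 genes negative, -0.04 in place of 0.08, with 12 higher and 7 lower. Under that scaling 37.7% of all calls were higher in KO, in place of 54.6%.

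Under vehicle fewer of the genes differed between the genotypes. Of the 34 genes 7 were higher in KO (20.6%) and 1 lower (2.94%), where 5.06% of all genes were higher and 5.78% lower, 10.8% in all. Of genes above the array median on all 8 arrays, 1468 of 8819 were called, 46.5% of them higher. Both KO arrays lay above both WT arrays for 18 of the 34 and below them for 4, against 24.3% and 26.6% of all genes. Of the 4 regulators 3 were higher in KO, and 4 of 19 SREBP2-type genes were. Srebf2 averaged 2054 ± 124 in KO with vehicle and 1352 ± 106 in WT with vehicle (0.60 ± 0.09, adjusted p = 0.00108). Srebf1 averaged 1484 ± 93.6 in KO with vehicle and 974 ± 36.4 in WT with vehicle (0.60 ± 0.10, adjusted p = 0.00215). Sqle was 1.56-fold higher (0.64 ± 0.12, adjusted p = 0.00372), and Fdft1 (0.44 ± 0.10, adjusted p = 0.0127), Idi1 (0.43 ± 0.07, adjusted p = 0.00224), Hmgcs1 (0.29 ± 0.07, adjusted p = 0.0152) and Scap (0.32 ± 0.09, adjusted p = 0.0466) were also higher. Scd2 was lower, at 510.2 ± 3.25 in KO with vehicle and 954 ± 68.2 in WT with vehicle (-0.89 ± 0.14, adjusted p = 0.00104).

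These vehicle differences rest on the variance model. Without the intensity trend 0 of the 7 higher genes passed, and the range of their adjusted p was then 0.0561 to 0.2. That fit called 251 of all 12091 genes, in place of 1311, so the loss was not particular to these genes. With 1 array left out the count of higher genes ran between 3 (without KO vehicle replicate 1) and 7. The Fdft1 call was lost without WT vehicle replicate 2 (adjusted p = 0.124), KO vehicle replicate 1 (0.0598) or KO vehicle replicate 2 (0.0894), and the Hmgcs1 call without WT vehicle replicate 1 (0.107) or KO vehicle replicate 1 (0.105). Sqle was not called without KO vehicle replicate 1 (0.0546), nor Scap without any array but the WT db-cAMP ones (0.052 to 0.271). With probe sets averaged the vehicle calls of Srebf2 (0.0507), Fdft1 (0.184), Scap (0.421) and Scd2 (0.618) were lost. The averages of Fdft1, Scap and Scd2 take in dim probe sets. With arrays scaled to an equal 75th percentile 5 genes were higher and 1 lower, and 25.3% of all calls were higher in KO, in place of 46.7%. Poly-A control signals were higher on every KO array than on every WT array, as given earlier, and their part in these differences was not tested. Fasn, which was 2.40-fold higher in KO under db-cAMP, differed by 0.28 ± 0.13 under vehicle (adjusted p = 0.203), and Lss by 0.12 ± 0.17 (adjusted p = 0.759).

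**Figure D3:**
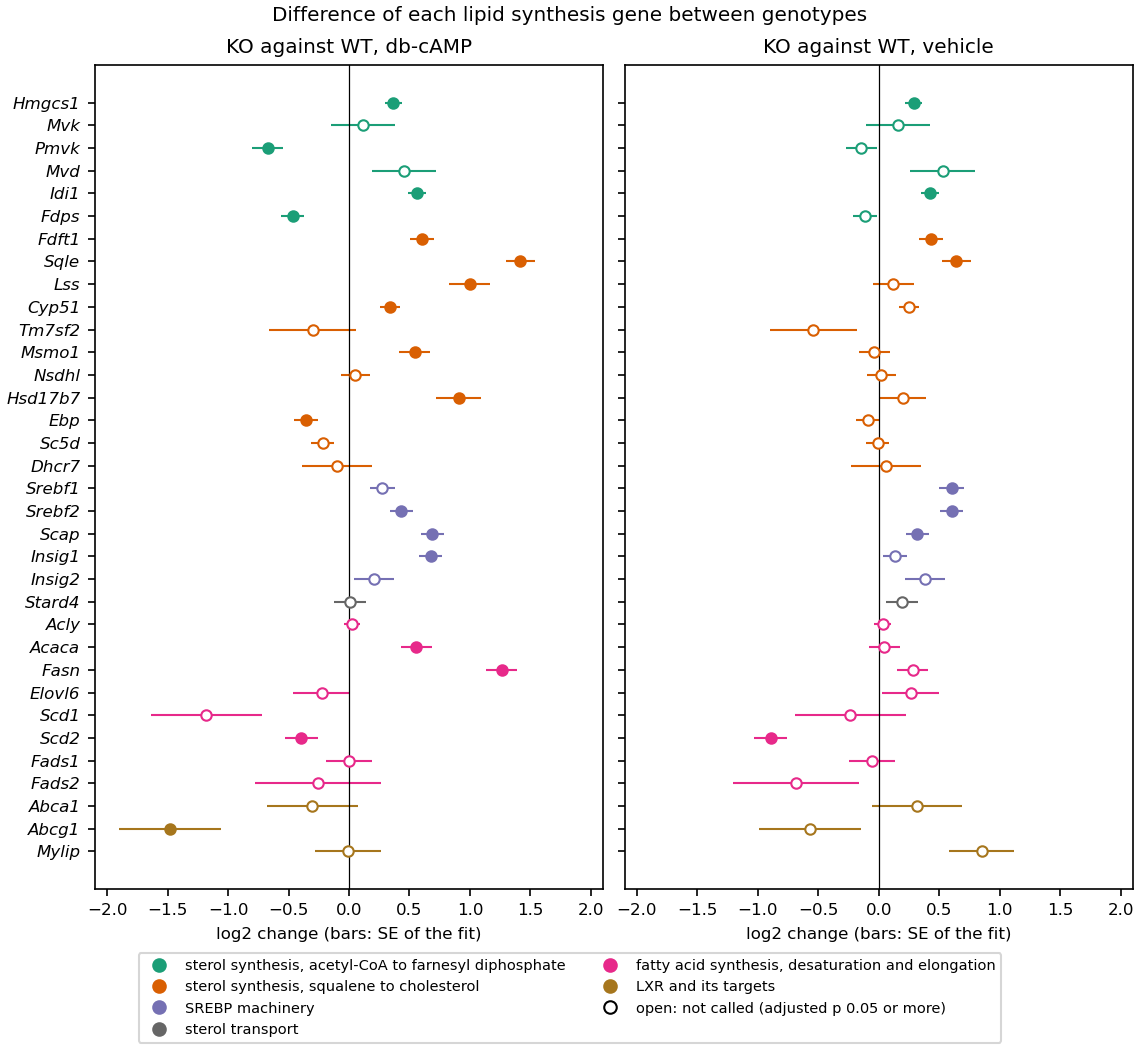
Log2 difference between KO and WT cells (x axis, KO over WT) of each of the 34 genes (rows, coloured by step), with db-cAMP (left) and with vehicle (right). Points are fitted differences with SEs of the fit, 2 arrays a group, and filled points passed an adjusted p under 0.05. With db-cAMP 13 filled points lie right of 0 and 5 left of it, with vehicle 7 and 1.

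**Figure D4:**
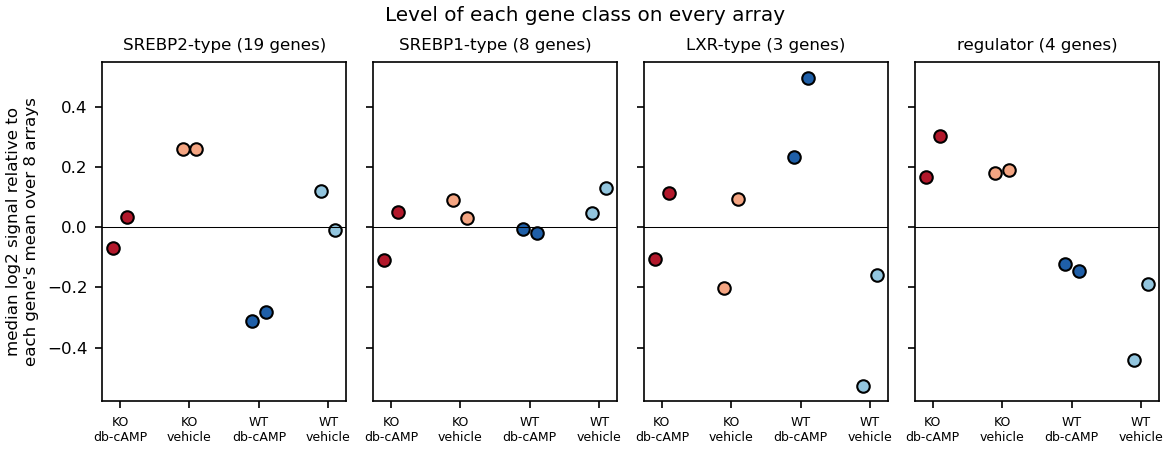
Median log2 signal of each class of genes on every array (y axis, relative to each gene's mean over the 8 arrays), with 1 point per array. SREBP2-type genes read -0.07 and 0.03 in KO with db-cAMP, 0.26 and 0.26 in KO with vehicle, -0.31 and -0.28 in WT with db-cAMP, and 0.12 and -0.01 in WT with vehicle. Medians of SREBP1-type genes lie between -0.11 and 0.13 on every array, and those of LXR-type genes are highest in WT with db-cAMP. The median of the 4 regulators, though not each of them, is higher on every KO array than on every WT array.

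Several genes had more than 1 probe set, 78 in all of which 63 passed the filter, and 24 genes had several. Refitting with every probe set as its own feature gave values that differed from those given in some genes. A further Srebf2 probe set read 267 and 246 in WT with db-cAMP, against 367 and 440.5 in WT with vehicle. It fell by 0.64 ± 0.16 on the log2 scale (adjusted p = 0.00785), where the brighter one had a positive change that missed the threshold, so the direction for Srebf2 with db-cAMP depends on the probe set. Both Srebf2 probe sets were higher in KO with db-cAMP, by 1.06 ± 0.16 (adjusted p = 0.000267) in the further one, which under vehicle differed by 0.21 ± 0.16 and did not pass (adjusted p = 0.487). A further Stard4 probe set fell in WT by 0.73 ± 0.15 (adjusted p = 0.00255), and the one that remains was higher in KO by 1.71 ± 0.17 with db-cAMP and 1.57 ± 0.17 with vehicle. For Sc5d a further probe set fell in WT by 1.06 ± 0.31 (adjusted p = 0.0215).

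For other genes the further probe sets were like the one used in some comparisons and not in others. Of Hmgcs1, 3 further probe sets were higher in KO under both treatments, with differences of 0.53 to 0.72 with db-cAMP, and the probe set used for Hmgcs1 is of a type whose probes may match further sequences, as are those of Fdft1, Lss and Hsd17b7. Hsd17b7 fell in WT in 2 further probe sets, by 1.21 ± 0.20 and 0.80 ± 0.23, and a further one for Cyp51 fell by 0.73 ± 0.12 (adjusted p = 0.000371). In KO cells that Cyp51 probe set changed by -0.08 ± 0.12 (adjusted p = 0.807), so the single KO call rests on the probe set used. The further Hsd17b7 probe sets changed in KO by 0.09 ± 0.20 and -0.29 ± 0.23, neither past the threshold, against -0.60 ± 0.19 in the one used. Interactions that the probe sets used did not give were called in further probe sets of Hsd17b7 (1.29 ± 0.29, adjusted p = 0.0153), Cyp51 (0.65 ± 0.17, adjusted p = 0.031) and Srebf2 (0.85 ± 0.22, adjusted p = 0.0347). Averaging a gene's probe sets turned Abcg1 to -0.59 and Scd2 to 0.07 in WT with db-cAMP, neither past the threshold, and each of those averages takes in a dim probe set that did not pass the filter. Averaging also ended the WT calls of Acaca (adjusted p = 0.159), Msmo1 (0.31), Scap (0.296) and Scd1 (0.43). These averages take in dim probe sets too, with mean signals of 45.3 for Acaca, 55.3 for Msmo1, 34.8 for Scap and 44.2 for Scd1. Of these dim probe sets only that of Msmo1 passed the filter.

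Further lists of lipid genes were measured in the same fit. They were chosen with earlier results of these data known, so their shares beside all genes are description only. With db-cAMP in WT cells 20 of their 63 tested genes rose (31.7%) and 16 fell (25.4%), where 16.4% of all genes tested rose and 18.6% fell. In KO cells 5 rose (7.94%) and 5 fell (7.94%), where 4.7% of all genes rose and 3.68% fell. The genes named from each list are the called ones with the largest WT changes. Of 9 other genes of SREBP processing and sterol sensing, 4 fell (44.4%) and 2 rose (22.2%) with db-cAMP in WT cells. The largest fall was in Tmem97, a sterol-sensitive membrane protein, with 368 and 246 in WT with db-cAMP, against 1565 and 1431 in WT with vehicle (-2.29 ± 0.18, adjusted p = 3.17e-07). Mbtps2, a protease that frees SREBPs in the Golgi, fell by 1.03 ± 0.11, and Erlin1, a sterol-sensing factor of the endoplasmic reticulum, by 0.79 ± 0.15. In KO cells Tmem97 read 796 and 617 with db-cAMP, against 1036 and 1192 with vehicle (-0.66 ± 0.18, adjusted p = 0.0361), and that call was lost without either KO vehicle array or without KO db-cAMP replicate 2. The KO changes of Mbtps2 and Erlin1 were -0.39 ± 0.11 (adjusted p = 0.0413) and 0.12 ± 0.15, and the Mbtps2 call was lost with any 1 of 6 arrays left out.

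Of 9 other sterol and isoprenoid genes, 3 fell (33.3%) and 2 rose (22.2%) in WT. Lbr, a nuclear envelope protein with sterol reductase activity, rose by 0.66 ± 0.07, while Coq2, of ubiquinone synthesis, fell by 0.63 ± 0.10 and Fntb, a farnesyltransferase subunit, by 0.94 ± 0.28 (adjusted p = 0.0189, not called when WT db-cAMP replicate 1 or WT vehicle replicate 1 was left out). Of 8 genes of sterol uptake, storage and trafficking, 4 rose (50%) and 3 fell (37.5%). The lipoprotein receptors Scarb1 and Lrp8 fell by 0.81 ± 0.14 and 1.01 ± 0.33, the Lrp8 call ending when WT db-cAMP replicate 2 or WT vehicle replicate 1 was left out, and Npc2, a lysosomal sterol carrier, rose by 0.69 ± 0.08. Scarb1 also fell in KO cells, by 0.77 ± 0.14 (adjusted p = 0.00312), a call lost without KO vehicle replicate 2 (0.0633) or KO db-cAMP replicate 1 (0.0534). Its interaction was 0.04 ± 0.20 (adjusted p = 0.937).

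Among 18 other genes of fatty acid and glycerolipid synthesis, 5 rose (27.8%) and 6 fell (33.3%) in WT. Dgat1, which makes triglyceride from diacylglycerol, had 5537 and 5790.5 in WT with db-cAMP, against 438 and 421 in WT with vehicle (3.70 ± 0.10, adjusted p = 3.67e-11). In KO cells it had 1096 and 1144 with db-cAMP, against 455 and 503 with vehicle (1.22 ± 0.10, adjusted p = 6.1e-06). It thus rose in both genotypes, by less in KO cells. The acyl-CoA synthetase Acsl3 rose by 1.69 ± 0.16 in WT and 1.13 ± 0.16 in KO, and Acss2, which makes acetyl-CoA from acetate and is a known SREBP target, rose in WT by 1.76 ± 0.18. The 6 that fell changed by -1.37 to -0.35, and the lowest of them, chosen after the values were seen, were the acyl-CoA synthetase Acsl5 and the glycerol-phosphate acyltransferase Gpam. Acsl5 fell by 1.37 ± 0.08 in WT and by 0.64 ± 0.08 in KO (adjusted p = 0.000141), and Gpam fell by 1.25 ± 0.14 in WT and changed by -0.04 ± 0.14 in KO (adjusted p = 0.926).

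Of 12 genes of fatty acid oxidation 7 rose and 0 fell in WT (58.3% rising, median 0.54), where 16.4% of all genes rose. This list too was chosen with earlier results known, so the 2 shares do not test it. In KO 2 rose and 0 fell (16.7% rising, median 0.10), where 4.7% of all genes rose. Cpt1a, which brings acyl chains into mitochondria, had 548 and 649.7 in WT with db-cAMP, against 182 and 161 in WT with vehicle (1.77 ± 0.17), and 501 and 412 in KO with db-cAMP, against 424 and 403 in KO with vehicle (0.13 ± 0.17). The oxidation enzymes Acadl and Hadhb rose in WT by 0.92 ± 0.09 and 0.72 ± 0.10. With probe sets averaged, the WT calls of Acsl3, Acadl and Hadhb were lost (adjusted p = 0.0769, 0.079 and 0.151). Of 7 other LXR and oxysterol genes limma called 0 in WT, and 2 had an unadjusted p under 0.05.

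**Figure D5:**
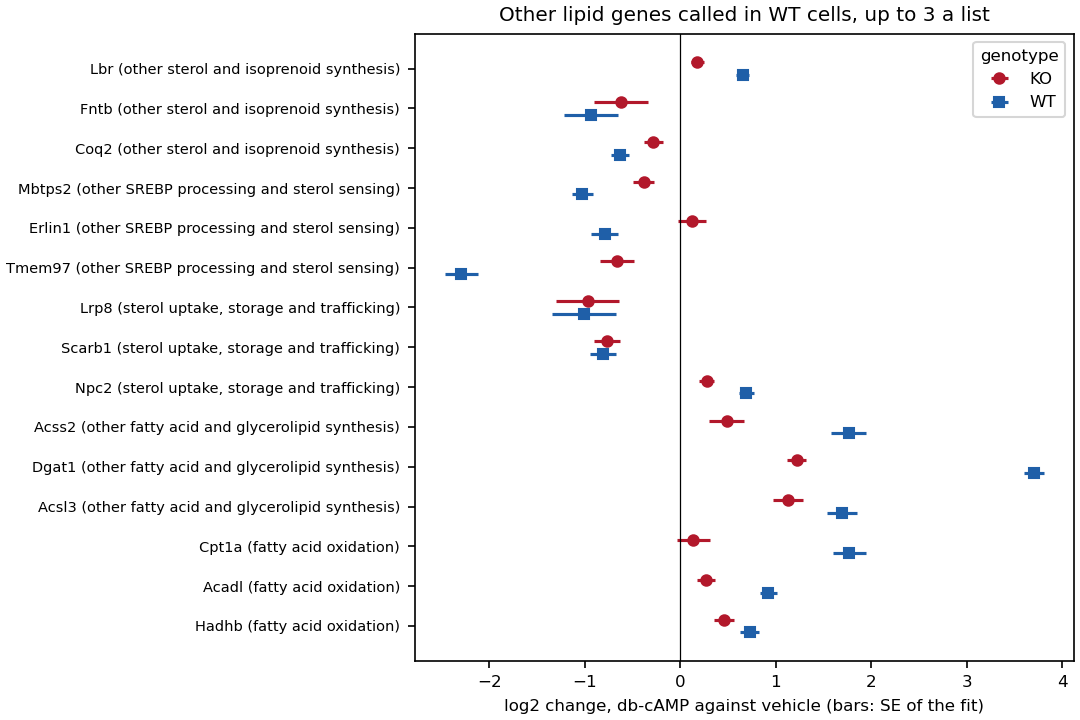
Log2 change with db-cAMP (x axis) of the 15 genes of the other lipid lists named by size of WT change (rows, list in brackets). Circles are KO cells and squares WT cells, with SEs of the fit from 2 arrays a group. Dgat1 lies furthest right, at 1.22 in KO and 3.70 in WT, and Tmem97 furthest left in WT, at -0.66 in KO and -2.29 in WT.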

How the data were processed

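RNA of 8 samples was hybridised to 1 Affymetrix array each. Each deposited value is a probe set's signal intensity on a linear scale, made with MAS5 per the submitters' processing notes, whose version and settings the sources used here do not state. The mean of the middle 96 percent of intensity values was 500 on every deposited array, so arrays had been scaled to a common mean. Detection calls were not used, and arrays have no read depth, so precision is limited by their number. There were 45101 probe sets, of which 64 were controls, 34945 had 1 symbol in the platform annotation, 932 had several and 9160 had none, and only those with 1 symbol were named.

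Values were transformed as log2(value + 5.48), the offset being the 10th percentile of all values, so changes of dim genes are understated. The probe set with the highest mean per gene was kept, and genes above the array median on at least 2 arrays were tested, 12091 of 18193. Tests used limma 3.58.1 (lmFit, eBayes with intensity trend) in R 4.3.3 on all 8 arrays with 1 term per group, 4 residual degrees of freedom and 9 prior ones (median), and Benjamini-Hochberg adjustment over all genes. The code was tested on simulated data. Promoters were searched with Python 3.11.15 and figures drawn with matplotlib 3.10.9.

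The genes, their classes and the other lipid lists were chosen with earlier results of these data known. Named genes are all listed genes, with values per array for those called in any comparison and for the regulators. Of each other lipid list up to 3 called genes with the largest change in WT were named, and Acsl5 and Gpam were added after the values were seen. Alternatives were other offsets, filters, scalings and probe set choices, no intensity trend, only the groups compared, a replicate block and leaving out each array.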

Additional observations from a re-analysis of the deposited data

Results flagged for a closer look

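The db-cAMP effect differed between the genotypes by limma's interaction test for 4 of the 34 lipid synthesis genes, given here as log2 changes with the KO effect minus the WT effect. Fasn changed by -0.26 ± 0.13 in KO and -1.24 ± 0.13 in WT, a difference of 0.98 ± 0.18 (adjusted p = 0.00295). Sqle changed by -0.33 ± 0.12 in KO and -1.10 ± 0.12 in WT, a difference of 0.77 ± 0.17 (adjusted p = 0.00913). Lss changed by -0.53 ± 0.17 in KO and -1.41 ± 0.17 in WT, a difference of 0.88 ± 0.24 (adjusted p = 0.0293). Insig1 changed by -0.23 ± 0.10 in KO and -0.77 ± 0.10 in WT, a difference of 0.54 ± 0.14 (adjusted p = 0.0212). In all 4 the negative change with db-cAMP was smaller in KO cells. Interactions were called for 11.8% of all genes tested.

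The same test called 18 of the 63 tested genes of the other lipid lists (28.6%), where 11.8% of all genes were called. The lists were chosen with earlier results of these data known, so these shares are description only. Of the 15 genes of these lists named by size of WT change, 9 were called. A large WT change enters the interaction, so that count is no measure of the lists. Acsl5 and Gpam, chosen after the values were seen, were also called. Their differences were 0.72 ± 0.11 (adjusted p = 0.000858) for Acsl5 and 1.22 ± 0.20 (adjusted p = 0.00138) for Gpam. In SREBP processing, Tmem97 changed by -0.66 in KO and -2.29 in WT, a difference of 1.63 ± 0.25 (adjusted p = 0.000989), Erlin1 changed by 0.12 in KO and -0.79 in WT, a difference of 0.92 ± 0.21 (adjusted p = 0.0106), and Mbtps2 changed by -0.39 in KO and -1.03 in WT, a difference of 0.64 ± 0.15 (adjusted p = 0.0138). In sterol synthesis and trafficking, Lbr changed by 0.18 in KO and 0.66 in WT, a difference of -0.48 ± 0.10 (adjusted p = 0.0057), and Npc2 changed by 0.27 in KO and 0.69 in WT, a difference of -0.42 ± 0.11 (adjusted p = 0.031). In glycerolipid synthesis, Dgat1 changed by 1.22 in KO and 3.70 in WT, a difference of -2.49 ± 0.14 (adjusted p = 1.45e-06), and Acss2 changed by 0.49 in KO and 1.76 in WT, a difference of -1.28 ± 0.26 (adjusted p = 0.00574). In fatty acid oxidation, Cpt1a changed by 0.13 in KO and 1.77 in WT, a difference of -1.63 ± 0.24 (adjusted p = 0.000777), and Acadl changed by 0.27 in KO and 0.92 in WT, a difference of -0.65 ± 0.13 (adjusted p = 0.00537). The Npc2 call was lost in 6 of the 8 fits that leave out 1 array (adjusted p = 0.0584 to 0.148), and the Mbtps2 and Erlin1 calls without KO db-cAMP replicate 1 (0.0712 and 0.0583). With probe sets averaged the calls of Acadl (-0.32, adjusted p = 0.831), Acss2 (-0.90, adjusted p = 0.314), Npc2 (0.424) and Lss (0.147) were lost. Without the intensity trend 2 of the 9 genes named by size of WT change were called, Dgat1 and Cpt1a, and 0 of the 4 lipid synthesis genes. Of all 12091 genes 261 were then called.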

How the results depend on the processing

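With probe sets of a gene averaged, 32 of the genes were tested. In WT with db-cAMP 1 then rose, the medians were -0.12 over all the genes, 0.0181 over SREBP1-type and -0.00395 over LXR-type genes, and Scd2 (0.0689) and Abcg1 (-0.59) changed sign. In KO with db-cAMP 0 fell, with medians of -0.25 over all, -0.26 over SREBP1-type and -0.13 over LXR-type genes. KO against WT had 0 lower with vehicle and 2 lower with db-cAMP, where Acsl3 changed sign (0.23). With each of 63 probe sets tested, 20 fell in WT with db-cAMP (medians -0.22 over all and -0.11 over SREBP1-type), 12 were higher in KO with vehicle and 25 with db-cAMP, and 7 interactions were positive. These are counts of probe sets, several for some genes. Of all 21956 probe sets 6385 were called in WT with db-cAMP (47.6% of them higher). Between genotypes 2401 were called with vehicle (57.9% higher) and 5790 with db-cAMP (58.7% higher), and 1771 interactions were called (55.6% positive). Without the intensity trend 0 fell in KO, 0 were higher in KO with vehicle, 2 were lower in KO with db-cAMP and 0 interactions were called. Of all 12091 genes that fit called 188 for db-cAMP in KO and 261 interactions. Between genotypes it called 251 with vehicle and 2437 with db-cAMP.

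With arrays scaled to an equal 75th percentile 5 fell in KO with db-cAMP, with genes above the median on all 8 arrays 2 fell, and with only the groups compared 6 fell. Of all genes these fits called, in the same order, 1029 of 12091 (43.1% of them higher), 1166 of 8819 (54.3%) and 1226 of 12091 (53.8%). An offset of 50 gave WT medians of -0.17 (SREBP1-type) and 0.51 (LXR-type), and the stricter filter -0.33 (SREBP1-type). The cause was not tested. Of calls, 7 of 15 with db-cAMP in WT, 0 of 1 in KO, 0 of 8 between genotypes with vehicle, 10 of 18 with db-cAMP and 0 of 4 interactions passed in every alternative.

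Leaving out 1 array gave these ranges. In WT with db-cAMP 1 to 3 rose and 10 to 12 fell, with medians of -0.09 to -0.02 over all, -0.37 to -0.20 over SREBP2-type, -0.33 to -0.10 over SREBP1-type and 0.68 to 0.95 over LXR-type genes. In KO 0 to 4 fell, with medians of -0.18 to -0.16 over all, -0.24 to -0.20 over SREBP2-type, -0.27 to 0.0388 over SREBP1-type and -0.19 to 0.28 over LXR-type genes. Between genotypes 3 to 7 were higher with vehicle and 1 lower, and 11 to 14 were higher with db-cAMP and 2 to 5 lower. Positive interactions numbered 2 to 5 and negative ones 0 to 1. A group left with 1 array was assumed to vary like the others.

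Same-numbered arrays did not deviate together (correlations -0.0199 to 0.0206), so the numbers were not taken to pair samples. With the replicate number as a block, 4 rose and 12 fell in WT, 1 fell in KO, 7 were higher and 1 lower in KO with vehicle, 13 and 4 with db-cAMP, and 4 interactions were positive.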
